A study of Homo sapiens with 11 samples.

Results

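The enzymes and cofactors that write, copy and remove DNA methylation were examined as binding targets of Ikaros, the zinc-finger transcription factor encoded by IKZF1, in human B-cell precursor acute lymphoblastic leukaemia (B-ALL) cell lines. The 8 genes were DNMT3A, DNMT3B, DNMT1, UHRF1, TET1, TET2, TET3 and TDG, out of 20033 protein-coding gene records in the annotation. They were chosen by name, and a peak was counted for one of them when the authors named it for the gene, when it overlapped the gene body, or when it lay within 1 kb of a transcription start site (TSS) of the gene. By this rule 243 of the 300249 deposited Ikaros peaks belonged to the 8 genes.

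Ikaros chromatin immunoprecipitation followed by sequencing (ChIP-seq) was deposited as 1 peak list for each of 5 conditions, all in established cell lines. JM1 cells and Nalm6 cells had each been treated with CX-4945 at 20 µM for 1 day, and REH, 697 and JM1 cells were untreated. CX-4945 inhibits casein kinase 2, a kinase known to phosphorylate Ikaros and to reduce its DNA binding. The labels name a Bethyl antibody for both JM1 lists and for REH, and an affinity-purified anti-Ikaros antibody for Nalm6 and 697, so line and antibody cannot be told apart between these sets. Nalm6 had 2 Ikaros libraries and 1 list, and untreated Nalm6 was not analysed here. With 1 list per condition there was no replicate check, no difference between lists could be tested, and every comparison below is a description of these lists.

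DNA methylation in mammals sits mostly on the cytosine of CpG dinucleotides. DNMT3A and DNMT3B place new methyl groups, while UHRF1 recognises the half-methylated sites left by replication and brings DNMT1 to copy the pattern. TET enzymes oxidise methylcytosine, and TDG excises the oxidised bases so that repair restores plain cytosine. DNMT3A and TET2 are recurrently mutated in blood cancers, mostly of the myeloid lineage.

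The lists differed widely in length, with 88692 peaks in treated JM1, 70894 in treated Nalm6, 83563 in REH, 19652 in 697 and 37448 in untreated JM1. Read depth per library was not analysed here, and longer lists do not by themselves show more binding. Each peak carries the authors' score, which was used only as a rank within its own list: the percentile of a peak is the share of peaks in that list with a lower score, ties counted at their middle. A difference in percentile between lists of different length cannot be read as a change in binding between conditions. As a check of the labelled cell type, a peak lay at the promoter of 9 of 10 B-cell precursor genes in treated JM1, 9 in treated Nalm6, 8 in REH, 3 in 697 and 9 in untreated JM1, against 2 of 6 T cell genes in each list. The share of all protein-coding genes with such a peak was 81.2% in treated JM1, 74.3% in treated Nalm6, 81.8% in REH, 49.5% in 697 and 58.8% in untreated JM1. The 3 of 10 in 697 and the 8 of 10 in REH are below that share, and the 9 of 10 in treated JM1 is near it. The 697 and REH lists therefore do not show the B-cell precursor genes above genes in general, and treated JM1 shows little difference. Among the B-cell precursor genes DNTT had no promoter peak in any list.

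A promoter peak, meaning any part of a peak within 1000 bp of an annotated TSS, was present at nearly all of these genes in every condition. It was found at 8 of 8 genes in treated JM1, where 81.2% of all protein-coding genes had one. In treated Nalm6 the count was 7 of 8 beside 74.3% of all genes, in REH 8 of 8 beside 81.8%, in 697 7 of 8 beside 49.5%, and in untreated JM1 8 of 8 beside 58.8%. Most genes carried a promoter peak in the long lists, so the 8 of 8 in treated JM1 and REH differs little from genes in general. The 2 gaps were TET2 in treated Nalm6 and TDG in 697. When the window was placed around the canonical TSS alone, the counts for the 8 genes were the same, beside 78.0% of all genes in treated JM1, 70.0% in treated Nalm6, 78.8% in REH, 45.1% in 697 and 53.2% in untreated JM1. The other 6 genes had a promoter peak in all 5 lists, as did 41.8% of all genes.

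Both JM1 lists held a promoter peak for each of the 8 genes, as they did for 58.2% of all protein-coding genes. None of the 8 had its promoter peak in treated JM1 alone, against 23.0% of all genes, and none had one in untreated JM1 alone, against 0.564% of all genes. A set of 8 genes is small beside such shares. By the 1000 bp rule, the presence of a promoter peak at these genes therefore did not separate treated from untreated JM1. With the authors' own promoter class and gene name, DNMT3B and TET1 had one in treated JM1 and none in untreated JM1. The description below turns to rank, width and the sites inside the genes.

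The peaks at the canonical TSS ranked in the upper part of most lists. Their median percentile over the 8 genes was 95.8 in treated JM1, 95.7 in treated Nalm6, 94.3 in REH, 85.7 in 697 and 81.6 in untreated JM1. Over all genes with a peak at the canonical TSS the median was 89.6 in treated JM1, 85.2 in treated Nalm6, 88.9 in REH, 68.2 in 697 and 70.8 in untreated JM1. The genes above the median of all genes numbered 5 of 8 in treated JM1, 7 of 7 in treated Nalm6, 8 of 8 in REH, 6 of 7 in 697 and 5 of 8 in untreated JM1. Which gene ranked first differed by list: DNMT1 led in treated JM1 and REH, TET1 in treated Nalm6, DNMT3A in 697 and TDG in untreated JM1.

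**Figure D1:**
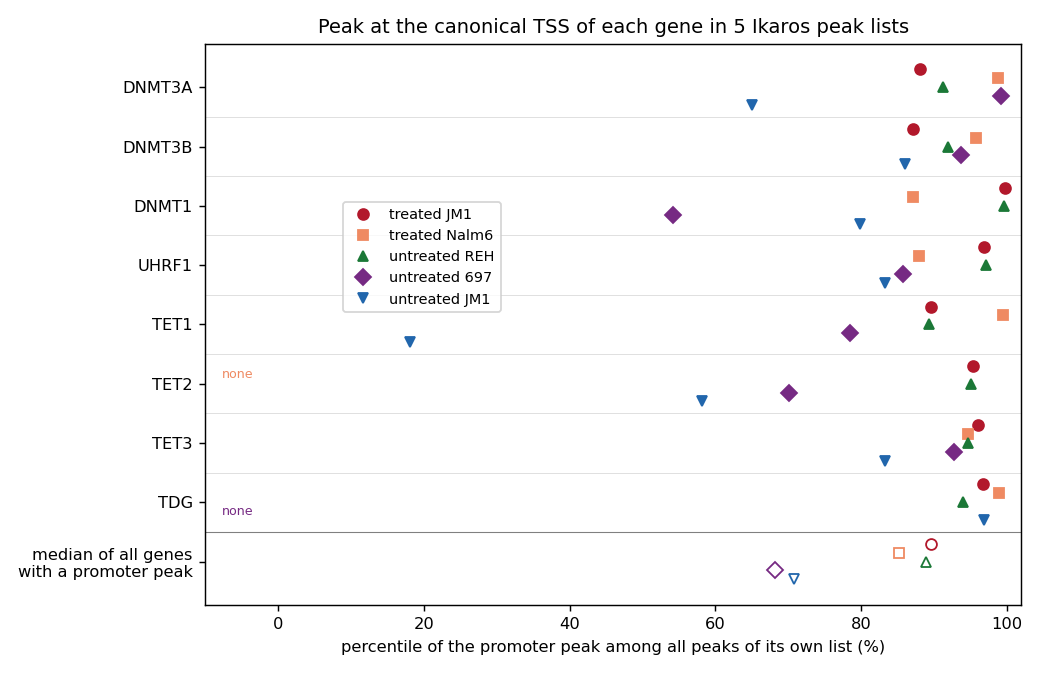
Percentile of the peak at the canonical TSS of each of the 8 genes among all peaks of its own list, with 1 marker per list and the median over all genes of each list shown for comparison. TET2 has no point for treated Nalm6 and TDG none for 697, and the lowest point is TET1 in untreated JM1 at percentile 18.2.

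DNMT3A, a de novo methyltransferase, carried the most peaks of the 8 genes in every list other than 697. The gene lies on the minus strand at chr2:25227855-25342590 (GRCh38), with 23 exons in its canonical transcript. It had 16 peaks in treated JM1, 22 in treated Nalm6, 16 in REH, 3 in 697 and 15 in untreated JM1. Peaks covered 66.5% of the canonical transcript in treated JM1, 28.5% in treated Nalm6, 61.3% in REH, 4.19% in 697 and 18.4% in untreated JM1. Among 10704 protein-coding genes whose canonical transcript is at least 20 kb long, DNMT3A stood at percentile 96.5 in treated JM1, 91.9 in treated Nalm6, 94.6 in REH, 93.1 in 697 and 95.3 in untreated JM1. The median cover of those long genes was 2.70% in treated JM1, 1.49% in treated Nalm6, 2.47% in REH, 0.251% in 697 and 0.694% in untreated JM1. DNMT3A thus stood above percentile 90 of long genes by cover in each of the 5 lists.

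The peak at the canonical DNMT3A promoter scored 33 in treated JM1 (percentile 88.1), 71 in treated Nalm6 (98.8), 51 in REH (91.3), 84 in 697 (99.2) and 17 in untreated JM1 (65.0). The width of this peak was 22220 bp in treated JM1, 4133 in treated Nalm6, 9658 in REH, 3045 in 697 and 2949 in untreated JM1. In treated JM1 it was therefore a broad domain running from upstream of the gene into the first intron, and the authors named it for MIR1301, a microRNA gene, and not for DNMT3A. In all, 27 of the peaks in DNMT3A were named for MIR1301, so that a search by gene name alone misses them.

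A second DNMT3A site lay about 90 kb into the gene, at the TSSs of the shorter DNMT3A transcripts, and had a peak in all 5 lists. It scored 56 in treated JM1 (percentile 96.3), 36 in treated Nalm6 (84.2), 94 in REH (98.2), 35 in 697 (77.1) and 26 in untreated JM1 (93.0). In treated JM1, REH and untreated JM1 this internal site ranked above the canonical promoter, and in treated Nalm6 and 697 it ranked below. This order followed the antibody named in the labels, and the part of the antibody was not tested. The middle of the stretch shared by all 5 peaks, chr2:25251594-25251893 of GRCh38, is shown 5′ to 3′ on the strand of the gene because it is the site whose rank differed in this way, with the Ikaros core GGGAA, or TTCCC where it lies on the opposite strand, in capitals.
DNMT3A internal promoter: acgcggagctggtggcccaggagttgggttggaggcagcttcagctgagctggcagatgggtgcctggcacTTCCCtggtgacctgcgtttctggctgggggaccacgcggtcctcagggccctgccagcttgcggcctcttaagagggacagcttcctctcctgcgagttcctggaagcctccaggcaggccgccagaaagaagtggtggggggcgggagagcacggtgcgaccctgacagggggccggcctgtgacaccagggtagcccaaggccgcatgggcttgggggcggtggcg
The 300 bases hold 1 copy of the core, as 65.3% of the central 300 bases of REH promoter peaks hold at least 1, 68.0% G and C, and no annotated exon of the canonical transcript.

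DNMT3B, the other de novo methyltransferase, lies on the plus strand at chr20:32762385-32809359 and has 23 exons in its canonical transcript. Its canonical promoter peak scored 32 in treated JM1 (percentile 87.2), 55 in treated Nalm6 (95.7), 53 in REH (91.9), 54 in 697 (93.7) and 22 in untreated JM1 (86.0). It ranked above percentile 85 in each list. A second TSS about 17 kb into the gene had a peak in treated JM1 (score 21), treated Nalm6 (29) and REH (19), and none in 697 or untreated JM1. In total DNMT3B had 9 peaks in treated JM1, 4 in treated Nalm6, 6 in REH, 2 in 697 and 2 in untreated JM1.

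One narrow DNMT3B site near 30 kb was present in treated JM1 and REH and absent from the other 3 lists. The treated JM1 peak, chr20:32792338-32793366, scored 39 (percentile 91.8) and outranked the DNMT3B promoter of the same list, and the REH peak, chr20:32792374-32792840, scored 41 (percentile 86.7). The site lies over exon 9 of the canonical transcript and the introns beside it. It counted as a promoter peak through TSSs of internal transcripts. The middle of the shared stretch, chr20:32792457-32792756 on the plus strand, is shown because it is the site that set these lists apart, with GGGAA or TTCCC in capitals.
DNMT3B site near 30 kb: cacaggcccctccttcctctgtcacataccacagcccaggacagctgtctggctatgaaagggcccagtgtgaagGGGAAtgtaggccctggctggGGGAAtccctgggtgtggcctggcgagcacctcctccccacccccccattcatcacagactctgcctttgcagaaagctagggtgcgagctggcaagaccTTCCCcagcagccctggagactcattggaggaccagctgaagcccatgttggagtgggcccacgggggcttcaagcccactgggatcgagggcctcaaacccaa
This window holds 3 copies of the core in 300 bases, a number reached by 11.6% of the central 300 bases of REH promoter peaks and by 11.1% of those of other REH peaks.

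**Figure D2:**
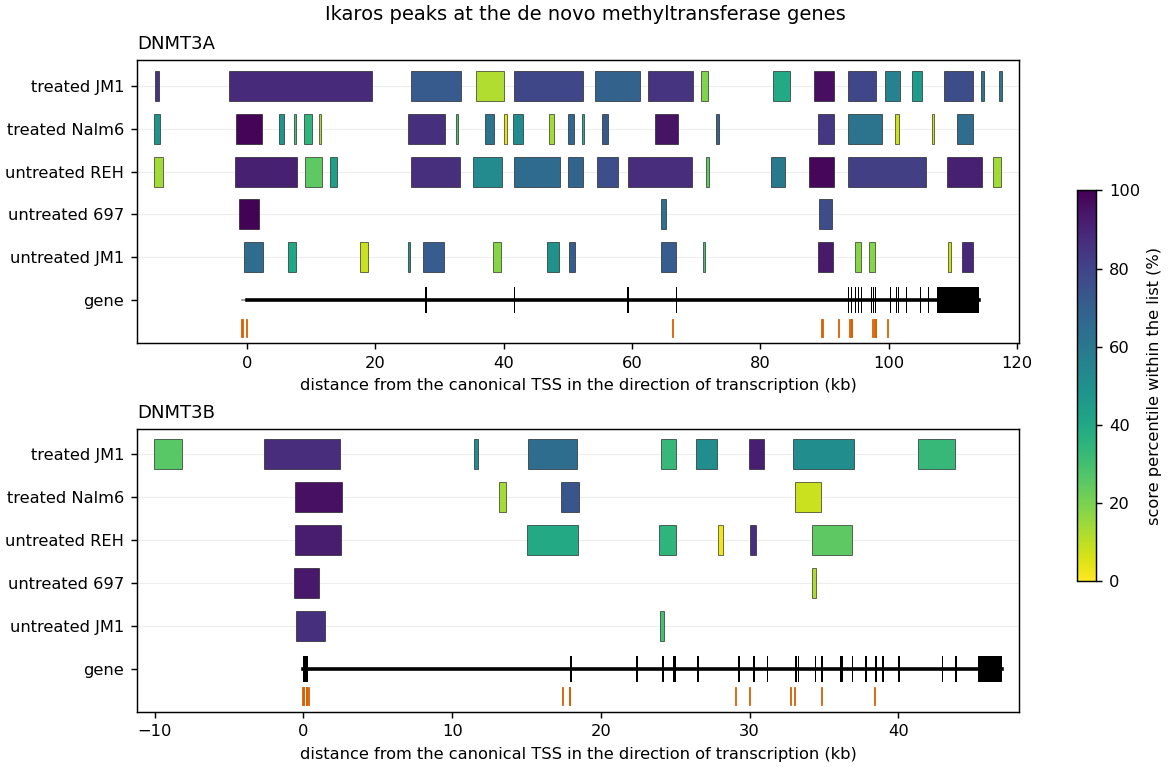
Positions of Ikaros peaks along DNMT3A and DNMT3B as distance from the canonical TSS in kb, with 1 row per list, the colour of each peak giving its score percentile within that list, black blocks for exons of the canonical transcript and orange ticks for annotated TSSs. DNMT3A is filled by wide peaks in treated JM1 and REH, and has 3 peaks in 697.

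DNMT1, the maintenance methyltransferase, had the highest-ranked promoter peak of the 8 genes in treated JM1 and REH. It lies on the minus strand of chromosome 19 with its canonical TSS at position 10194953 and 41 exons in the canonical transcript. The promoter peak scored 158 in treated JM1 (percentile 99.8), 39 in treated Nalm6 (87.1), 139 in REH (99.7), 24 in 697 (54.2) and 20 in untreated JM1 (79.9). Among genes with a peak at the canonical TSS DNMT1 stood at percentile 98.6 in treated JM1, 54.8 in treated Nalm6, 98.5 in REH, 34.4 in 697 and 60.5 in untreated JM1. It was near the top in treated JM1 and REH and nearer the middle in the other lists. The DNMT1 peak was also narrow, with widths of 1287 bp in treated JM1, 739 in treated Nalm6, 1048 in REH, 666 in 697 and 555 in untreated JM1, below the median of all genes in each list.

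The centre of the stretch shared by the 5 DNMT1 promoter peaks lies at the end of exon 1 and in the start of intron 1. Its sequence, chr19:10194627-10194867 on the strand of the gene, is shown because this peak led the 8 genes in both treated JM1 and REH. Bases annotated as untranslated in any transcript were left out, and GGGAA or TTCCC is in capitals.
DNMT1 promoter: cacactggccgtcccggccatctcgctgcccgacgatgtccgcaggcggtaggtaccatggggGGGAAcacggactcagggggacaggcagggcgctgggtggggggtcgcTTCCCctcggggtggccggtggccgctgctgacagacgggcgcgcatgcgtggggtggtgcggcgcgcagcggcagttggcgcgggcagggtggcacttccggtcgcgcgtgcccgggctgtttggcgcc
The 241 bases hold 2 copies of the core, and the full window of 300 bases holds 3.

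The annotated DNMT1 record runs 36.3 kb upstream of the canonical TSS through transcripts with a distant start, across the S1PR2 gene. A peak at that distant start had a score of 44 (treated JM1), 62 (REH), 45 (697) or 17 (untreated JM1), and the nearest treated Nalm6 peak, of score 26, lay inside the record short of it. The authors gave these 5 peaks to MIR4322 or to no gene. Whether they belong to DNMT1 or to its neighbours cannot be told apart from position. Beyond the record, 41.6 kb upstream of the canonical TSS, treated JM1 had a peak named for DNMT1 at chr19:10236245-10236778 with score 68 (percentile 97.7). REH had a peak of score 12 (percentile 4.85) at the same place, and treated Nalm6, 697 and untreated JM1 had none.

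UHRF1, which brings DNMT1 to replicated DNA, lies on the plus strand at chr19:4903080-4962154, with its canonical TSS at position 4909501. Its promoter peak scored 60 in treated JM1 (percentile 96.8), 40 in treated Nalm6 (87.9), 81 in REH (97.1), 42 in 697 (85.7) and 21 in untreated JM1 (83.3). Every list thus ranked it above percentile 83. Inside the gene, peaks covered 42.0% of the canonical transcript in treated JM1, 25.7% in treated Nalm6, 63.0% in REH, 5.63% in 697 and 9.95% in untreated JM1. Of the 36 UHRF1 peaks in the 5 lists together, the authors named 20 for MIR4747, a microRNA gene within UHRF1, and 5 for the neighbour KDM4B.

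A site in intron 2 of the canonical UHRF1 transcript outranked the promoter in REH. The REH peak, chr19:4914014-4917151, scored 129 (percentile 99.6) and was left without a gene name by the authors. Peaks there scored 16 in treated JM1 (percentile 39.5) and 19 in untreated JM1 (percentile 75.7), and treated Nalm6 and 697 had none. The site was therefore among the top peaks of the REH list only, and its presence followed the antibody set, whose part was not tested. The middle of the stretch shared by the 3 peaks, chr19:4916521-4916820 on the plus strand, is shown because a peak near the top of a list stood there.
UHRF1 intron 2 site: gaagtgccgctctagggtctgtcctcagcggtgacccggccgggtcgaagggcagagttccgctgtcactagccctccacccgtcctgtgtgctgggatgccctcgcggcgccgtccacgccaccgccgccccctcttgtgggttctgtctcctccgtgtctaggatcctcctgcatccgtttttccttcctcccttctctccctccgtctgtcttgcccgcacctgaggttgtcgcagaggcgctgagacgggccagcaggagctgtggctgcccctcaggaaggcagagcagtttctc
These 300 bases have no GGGAA or TTCCC and so no capitals, which says only that these letters are not in this window.

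**Figure D3:**
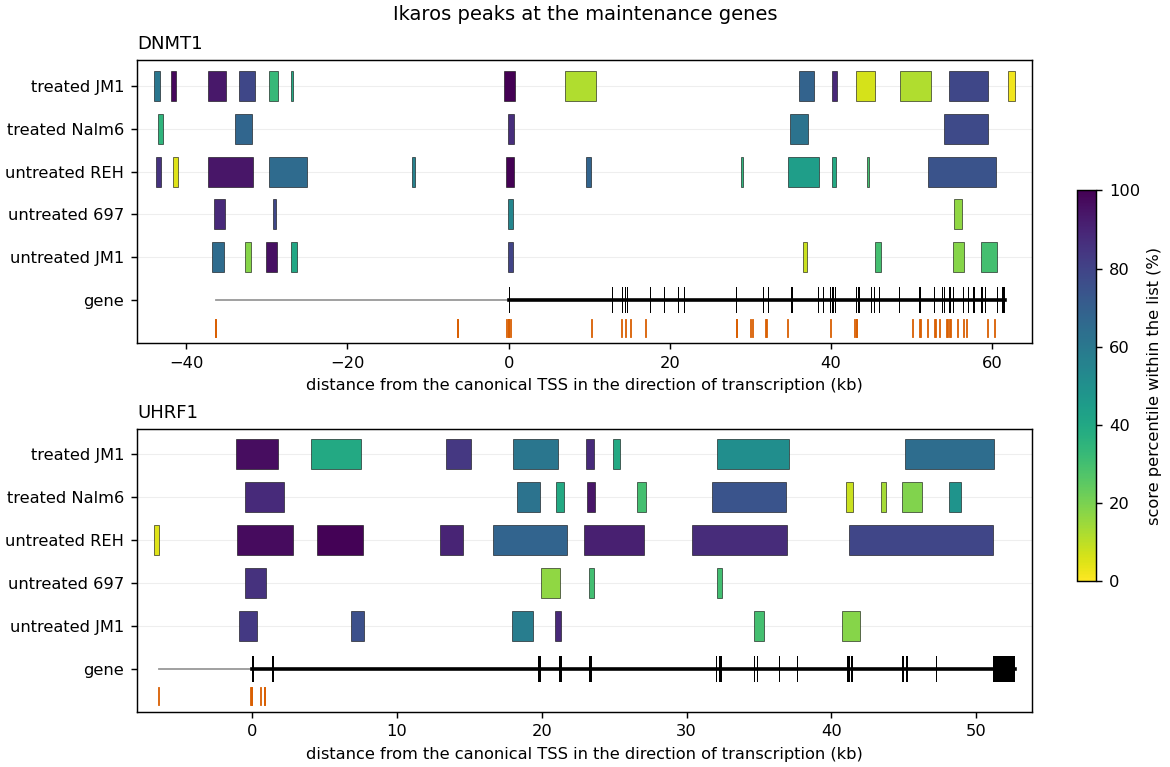
Positions of Ikaros peaks along DNMT1 and UHRF1 as distance from the canonical TSS in kb, with 1 row per list, the colour of each peak giving its score percentile within that list, black blocks for exons of the canonical transcript and orange ticks for annotated TSSs. Peaks at the DNMT1 and UHRF1 canonical TSS appear in all 5 rows, and the UHRF1 intron 2 site appears in treated JM1, REH and untreated JM1.

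TET1, an oxidase of methylcytosine, lies at chr10:68560337-68694487 on the plus strand and had 1 promoter peak in each list. The peak scored 35 in treated JM1 (percentile 89.6), 81 in treated Nalm6 (99.5), 46 in REH (89.4), 36 in 697 (78.5) and 12 in untreated JM1 (18.2). The untreated JM1 peak was the lowest-ranked of all peaks at a canonical TSS of the 8 genes. It did not reach the TSS, starting 751 bp downstream of it with its centre at 1140 bp, and it counted through its near edge. The treated JM1 peak was 3618 bp wide and spanned the TSS, while the untreated JM1 peak was 779 bp wide. At the border of the 1000 bp window, a DNMT3B peak in REH (score 11) lay 899 bp from a TSS and was counted as a promoter peak, and a DNMT3A peak in 697 (score 28) lay 1031 bp from one and was not.

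Beyond its promoter TET1 had 3 peaks in treated JM1 and 4 in REH, and none in treated Nalm6, 697 or untreated JM1. The one place shared by treated JM1 and REH was in intron 2, about 39 kb from the TSS, with score 27 in both lists (percentile 80.7 in treated JM1 and 68.0 in REH). The REH peak there overlapped RefSeq windows around an internal TET1 start, chr10:68600018-68600317 and chr10:68600224-68600523, and the treated JM1 peak ended short of them. All 7 intragenic TET1 peaks were named for pseudogenes or other genes by the authors.

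TET2, the oxidase most often mutated in blood cancers, lies at chr4:105145875-105279816 on the plus strand. It was the only one of the 8 genes without any peak in treated Nalm6, whether at a promoter, in the gene body or by name. Genes that lacked a promoter peak in Nalm6 and had one in each of the other 4 lists were few, at 142 or 0.709% of all protein-coding genes. Its promoter peak scored 51 in treated JM1 (percentile 95.4), 66 in REH (95.03), 31 in 697 (70.2) and 16 in untreated JM1 (58.2). These peaks lay mostly just upstream of the canonical TSS, their centres being at -494.5 bp (treated JM1), 115.5 bp (REH), -216.5 bp (697) and -503.5 bp (untreated JM1). Otherwise TET2 had 1 intronic peak in treated JM1 (score 10) and 1 in REH (score 17), at different places.

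TET3, another oxidase of the family, lies at chr2:73984910-74108176 on the plus strand and had the most peaks of the 3 TET genes, with 15 in treated JM1, 10 in treated Nalm6, 13 in REH, 3 in 697 and 4 in untreated JM1. The canonical promoter peak scored 55 in treated JM1 (percentile 96.1), 52 in treated Nalm6 (94.7), 64 in REH (94.7), 52 in 697 (92.7) and 21 in untreated JM1 (83.3). The start of a long non-coding RNA lies 222 bp away, and the authors named 4 of these 5 peaks for AC073046.1, so the promoters cannot be told apart. An internal TET3 promoter 17.8 kb from the canonical TSS also had a peak in all 5 lists, with scores of 34 in treated JM1 (percentile 88.9), 50 in treated Nalm6 (93.9), 39 in REH (85.3), 48 in 697 (90.6) and 23 in untreated JM1 (88.3). Both TET3 promoters thus ranked above percentile 83 in every list. Another TSS, 62.25 kb into the gene, had a peak of score 33 in treated JM1, 21 in treated Nalm6 and 21 in REH, and none in 697 or untreated JM1.

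The internal TET3 promoter is shown because it held a peak in all 5 lists and, unlike the windows printed above, the longer Ikaros motif TGGGAA. The stretch chr2:74002442-74002712 on the plus strand is the middle of the shared part without its annotated untranslated bases, and GGGAA or TTCCC is in capitals.
TET3 internal promoter: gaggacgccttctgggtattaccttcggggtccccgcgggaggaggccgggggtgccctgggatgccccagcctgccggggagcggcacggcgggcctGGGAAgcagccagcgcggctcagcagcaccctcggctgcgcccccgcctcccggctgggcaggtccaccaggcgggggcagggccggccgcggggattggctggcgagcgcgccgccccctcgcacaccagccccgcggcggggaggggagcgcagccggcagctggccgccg
It holds 1 copy of the core, which is part of TGGGAA, a longer motif found in 23.9% of the central 300 bases of REH promoter peaks. The DNMT3A internal promoter has TGGGAA too, outside the bases printed for it. Its RefSeq window chr2:25252266-25252565, overlapped by a peak in all 5 lists, holds 1 TGGGAA and 4 copies of the core.

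TDG, the glycosylase that removes oxidised methylcytosine, lies at chr12:103965822-103988874 on the plus strand. Its promoter peak scored 59 in treated JM1 (percentile 96.7), 72 in treated Nalm6 (98.9), 61 in REH (94.0) and 31 in untreated JM1 (96.9), and no TDG peak was listed in 697. Absence from 697 alone was common, at 13.7% of all protein-coding genes, in the shortest of the lists. TDG was the highest-ranked of the 8 promoters in untreated JM1. Its promoter is shared with UQCC6, whose TSS is 164 bp away, and with a long non-coding RNA 21 bp away, so the peak cannot be given to 1 of them. Away from the promoter the gene had 1 peak, in intron 1 in treated JM1, at the lowest score of the list.

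**Figure D4:**
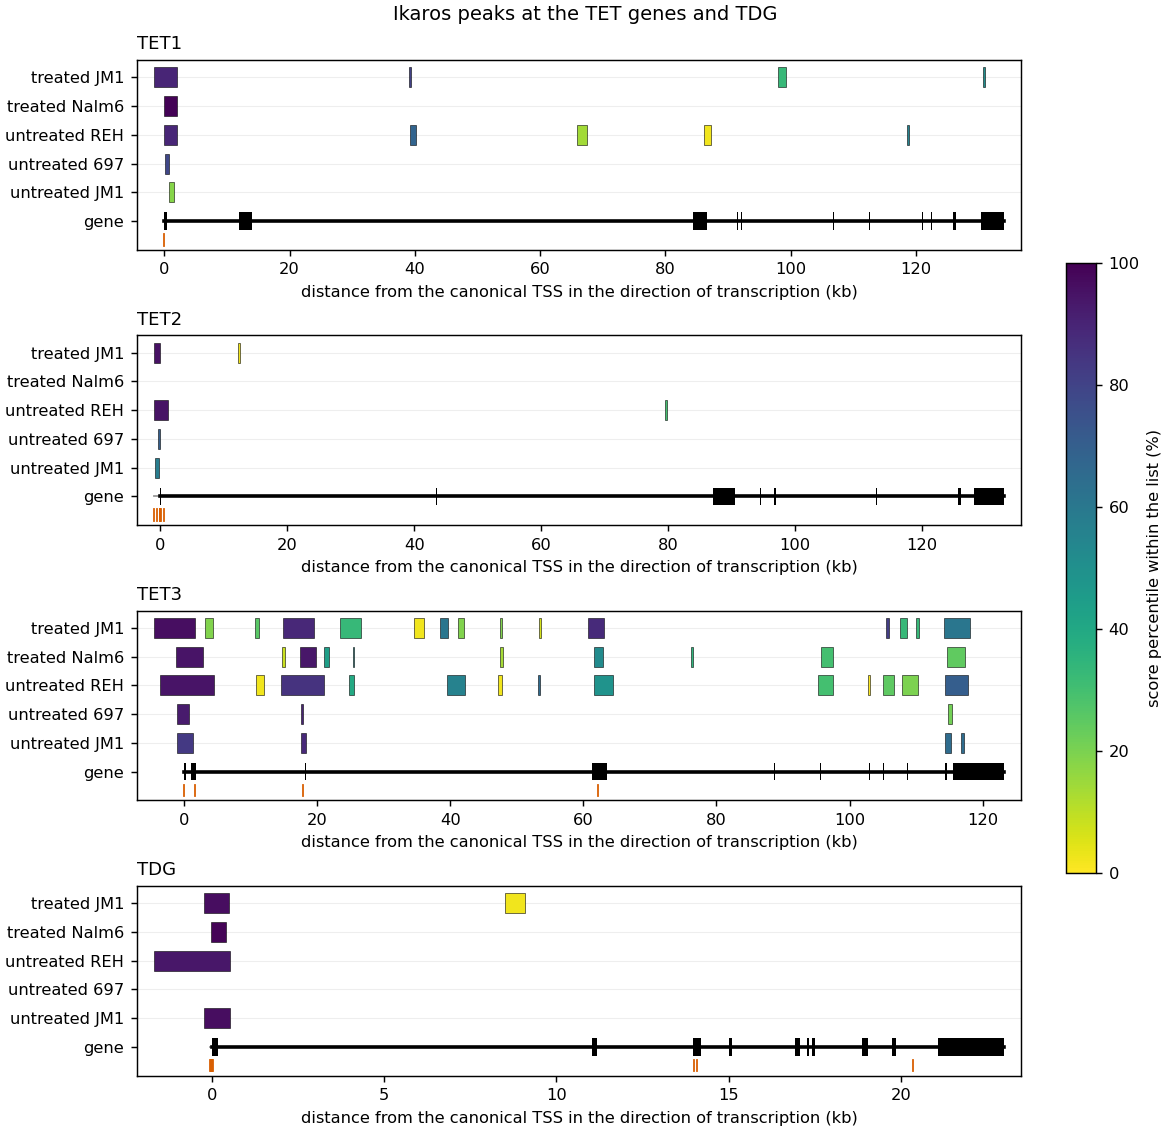
Positions of Ikaros peaks along TET1, TET2, TET3 and TDG as distance from the canonical TSS in kb, with 1 row per list, the colour of each peak giving its score percentile within that list, black blocks for exons of the canonical transcript and orange ticks for annotated TSSs. The treated Nalm6 row of TET2 and the 697 row of TDG are empty, and TET3 has peaks at 2 promoters in all 5 rows.

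Away from their own TSSs, the 8 genes held 47 peaks in treated JM1, 37 in treated Nalm6, 39 in REH, 6 in 697 and 23 in untreated JM1, most of them in introns. The authors classed 1 of these in treated JM1 and 1 in 697 as promoter peaks. Median percentiles of all these peaks were 45.6 in treated JM1, 34.8 in treated Nalm6, 56.1 in REH, 30.2 in 697 and 40.3 in untreated JM1, well below those of the promoters. Cover by peaks was lower at TET1, TET2 and TDG than at DNMT3A and UHRF1 in each list. TDG had cover of 4.76% in treated JM1, 1.79% in treated Nalm6, 2.26% in REH, 0% in 697 and 2.32% in untreated JM1. TET2 had cover of 0.266% in treated JM1, 0% in treated Nalm6, 1.13% in REH, 0% in 697 and 0% in untreated JM1, each below the median of long genes. TET1 lay near those medians, at 3.00% in treated JM1, 1.45% in treated Nalm6, 4.58% in REH, 0.501% in 697 and 0.581% in untreated JM1. TET3 lay between, with 19.5% in treated JM1, 10.7% in treated Nalm6, 23.9% in REH, 1.36% in 697 and 2.85% in untreated JM1.

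**Figure D5:**
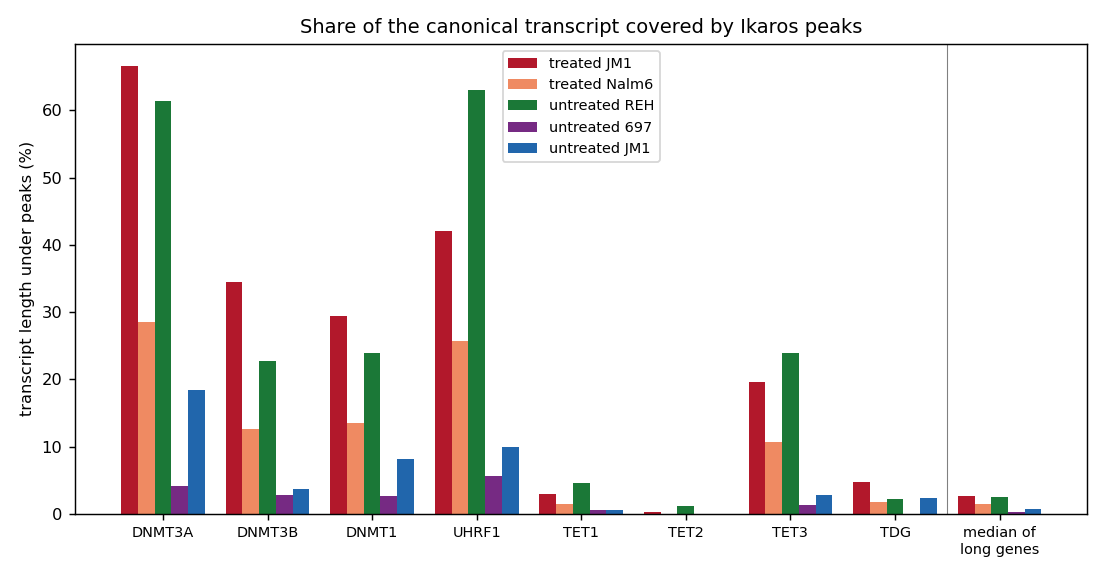
Percent of the canonical transcript covered by Ikaros peaks for each of the 8 genes in each list, with the median over 10704 protein-coding genes of at least 20 kb for comparison. DNMT3A reaches 66.5% in treated JM1 and UHRF1 63.0% in REH, while TET1, TET2 and TDG stay below 5%.

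The share of peaks common to treated and untreated JM1 depended on how overlap was counted. Of 39 untreated JM1 peaks 36 were overlapped by a treated JM1 peak by at least 1 bp, which is 92.3% (95% exact Clopper-Pearson interval 79.1 to 98.4%), beside 84.1% of all untreated JM1 peaks. The share was 74.4% with both lists at the length of the untreated list, beside 65.4% of all untreated JM1 peaks, and 12.8% when a reciprocal overlap of 50% was asked, beside 23.4%. In the other direction 28 of 70 treated JM1 peaks, or 40.0% (28.5 to 52.4%), were overlapped by an untreated JM1 peak, beside 29.0% of all treated JM1 peaks. These intervals cover counting error only. They treat each peak as independent, although 15 of the 39 untreated JM1 peaks lie in DNMT3A alone, so the intervals may be too narrow. At promoters 14 of 23 treated JM1 peaks had an untreated counterpart, beside 59.0% of all treated JM1 promoter peaks. Away from promoters the count was 14 of 47, beside 18.6% of all treated JM1 peaks away from promoters of protein-coding genes. Of the untreated JM1 peaks, 16 of 16 at promoters had a treated counterpart, beside 96.2% of all, and 20 of 23 away from promoters, beside 76.0%. The 47 and the 23 leave out only peaks at TSSs of their own gene. The 18.6% and 76.0% leave out peaks at any protein-coding TSS, so these shares are not defined alike. The 3 untreated JM1 peaks with no treated counterpart lay at chr19:4950203-4951503 in UHRF1 (score 12, percentile 18.2), chr19:10148804-10149452 in DNMT1 (score 13, percentile 29.8) and chr2:25316540-25316819 in DNMT3A (score 15, percentile 49.8).

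Most of the treated JM1 peaks with no untreated counterpart lay where REH also had a peak. Of these 42 peaks, 32 (76.2%, 60.5 to 87.9%) overlapped a REH peak, beside 53.9% of all such treated JM1 peaks. In treated Nalm6 11 of the 42 (26.2%, 13.9 to 42.0%) had an overlapping peak, beside 36.4% of all such peaks. REH was untreated and shares the Bethyl antibody with JM1, whereas Nalm6 was treated and had the other antibody, and the REH list is the longer of the 2. Their parts in these shares were not tested.

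Merging the peaks of all lists gave 75 sites at the 8 genes. Of these, 25 were in 1 list, 15 in 2, 9 in 3, 12 in 4 and 14 in all 5. Merged over the whole series, intergenic peaks included, 48.7% of 123130 sites were in 1 list, 17.9% in 2, 14.5% in 3, 10.0% in 4 and 8.98% in all 5. The 14 sites in all 5 lists comprised 6 canonical promoters, 5 sites holding other TSSs and 3 at no TSS of their gene. Of these 3, 2 were in UHRF1 and 1 near the end of TET3. Merging joined peaks in chains, so peaks of different lists within a site need not overlap. At the distant DNMT1 start the treated Nalm6 peak lay 2413 bp from the nearest TSS. At the DNMT3A site chr2:25272463-25287671 the 697 peak lay 1031 bp from one. In UHRF1, at chr19:4939848-4946552, the 697 and untreated JM1 peaks did not overlap. Sites found in treated JM1 and REH and in no other list numbered 14, of which 5 were in TET3 and 4 in DNMT1, beside 9.71% of all sites. Sites in a single list numbered 10 for treated JM1 (20.4% of all sites), 5 for treated Nalm6 (8.42%) and 9 for REH (16.5%). No site was present in 697 alone, beside 0.819% of all sites, and 1 was present in untreated JM1 alone, beside 2.58%.

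RefSeq windows of 250 bases before to 50 after a start (GRCh38.p14) matched all 8 genes with 19 windows, 6 of them of DNMT3A, and their median G and C content was 69.7%, against 58.7% over 35116 RefSeq windows. Observed over expected CpG was 0.705 at the median of the 19 windows and 0.579 over all. The only DNMT3B window, at 0.118, lay below the median of all windows, but it is at the internal start about 17 kb into the gene. The 300 bases in the middle of the DNMT3B canonical promoter peaks had 0.848. Also below that median were DNMT3A windows at 0.503 and 0.537 and the TET1 windows. The TET1 window at the canonical TSS had 0.463, and those at an internal start had 0.309 and 0.480. GGGAA on either strand was in 15 of the 19 and in 65.0% of all windows, and TGGGAA was in 4 of the 19 and in 24.0% of all. Promoters of the same length thus hold the core more often than not, and a match is a description of the sequence, not a site.

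The wider methylation pathway was described with 27 further genes in 4 groups. A promoter peak was present at 27 of 27 in treated JM1 (81.2% of all genes), 22 in treated Nalm6 (74.3%), 26 in REH (81.8%), 17 in 697 (49.5%) and 20 in untreated JM1 (58.8%), and at 17 in all 5 lists (41.8%). The 7 genes with one in treated JM1 and none in untreated JM1 were MBD4, HELLS, NEIL3, APEX1, XRCC1, MAT2B and OGT. These include 3 of 7 genes of base excision repair, the pathway that follows TDG, and that share of 7 in 27 stands beside 23.0% of all genes.

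By group, 8 of 8 genes of the methyl-CpG reader families had a promoter peak in treated JM1 and 7 in untreated JM1. The highest of this group was MBD3, a subunit of the NuRD remodelling complex. It scored 167 in treated JM1 (percentile 99.8) and 31 in untreated JM1 (percentile 96.9). Scores are ranks within a list and are not compared between the lists. Among the 6 partners of the writers 6 had a peak in treated JM1 and 5 in untreated JM1. They were led by PCNA, the replication clamp, with 111 in treated JM1 (percentile 99.4) and 37 in untreated JM1 (percentile 98.6). Base excision genes numbered 7 of 7 in treated JM1 and 4 in untreated JM1. SMUG1, a uracil glycosylase, had the highest score of the 27 genes in both JM1 lists. It scored 231 in treated JM1 (percentile 99.90) and 122 in untreated JM1 (percentile 99.97). The group of methyl donor and TET cofactor genes, in which OGT was also placed, numbered 6 of 6 in treated JM1 and 4 in untreated JM1. It was led by IDH1, a source of alpha-ketoglutarate, with 115 in treated JM1 (percentile 99.4) and 40 in untreated JM1 (percentile 99.0). No gene of the 4 groups lacked a promoter peak in every list.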

How the data were processed

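Ikaros ChIP-seq peak lists of 5 conditions were analysed, from 6 Ikaros libraries; the 5 input libraries had no list analysed here. Per the labels' protocols, BBDuk trimmed the reads, and per the submitters' processing notes the tools were Bowtie2 2.3.4.3, MACS2 2.1.1 and HOMER 4.10 with the GRCh38 build. Not given in the sources used here are how peaks were called and against which control, whether Nalm6 libraries were pooled, and how the score was defined. Each deposited peak holds a position, a whole-number score of at least 10, an annotation class and a gene name, all made by the authors, per the file headers.

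The scores were turned into percentiles within each list. Peaks were assigned with GENCODE release 44 in Python 3.11.15 with pandas 2.3.3, and intervals came from scipy 1.17.1. Coordinates are as deposited; 0 peaks exceeded the length of their chromosome. Promoters were counted over any annotated TSS within 1000 bp, and an overlap of 1 bp made peaks shared. Overlapping peaks of the 5 lists were merged into sites. The promoter count was tested on simulated data, where 2000 of 2000 genes were recovered.

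All 8 genes are named. Of the 4 groups of other pathway genes, the rule named the gene with the highest-scored promoter peak in each JM1 list and any gene without one in all lists. The genes and the lists were chosen with earlier results of these data known. There was no test and no p-value. Alternatives were the position of the promoter window, the canonical TSS, the authors' class, the 19652 top-scored peaks and a 50% reciprocal overlap. The canonical gene body and canonical TSS for peaks away from promoters were added after seeing the data.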

Additional observations from a re-analysis of the deposited data

How the results depend on the processing

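Of 44 recomputed values, 34 stayed within 1.5 times the reported count or within its interval and 10 did not. With the authors' own promoter class and gene name, treated Nalm6 had 4 of the 8 genes with a promoter peak in place of 7. The same rule gave 6 in place of 8 in REH, 5 in place of 7 in 697 and 6 in place of 8 in untreated JM1. Those lower counts stayed within 1.5 times the reported ones, and treated JM1 kept 8. Limiting each list to its 19652 top-scored peaks left 8 peaks away from promoters in treated JM1 in place of 47, 3 in treated Nalm6 in place of 37, 8 in REH in place of 39 and 11 in untreated JM1 in place of 23, and 8 sites in all 5 lists in place of 14; these follow from the smaller lists. Counting the canonical TSS alone, chosen after seeing the data, gave 11 peaks away from promoters in 697 in place of 6. When the centre of a peak had to lie within 1000 bp of a TSS, 1 gene, TET1, had a promoter peak in treated JM1 alone in place of 0. With the 19652 top-scored peaks TET1 again had one in treated JM1 and none in untreated JM1. With the authors' class and gene name, both TET1 and DNMT3B did. The overlap of untreated JM1 peaks by treated ones, 92.3%, was 74.4% with both JM1 lists at the length of the untreated list and 12.8% when a reciprocal overlap of 50% was asked; the cause was not tested. No paired analysis was possible because each condition had 1 list, and for the same reason no list could be left out. Read depth is unknown, which limits any reading of absent peaks, TET2 in treated Nalm6 and TDG in 697 among them.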

Other observations

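Genes whose promoter percentiles over the 5 lists were nearest to those of 5 of the 8 genes, by Euclidean distance in percentile points among 8366 genes with a promoter peak in all 5 lists, were PRKAG2 for DNMT3A (1.56), MBTPS1 for DNMT1 (2.58), ZNF511 for UHRF1 (2.87), ANKRD34B for TET1 (5.62) and PARP10 for TET3 (2.50). The best-scored promoter peak of each gene was used, which for DNMT3A is the internal promoter in treated JM1, REH and untreated JM1, for DNMT1 in 697 the distant start, and for TET3 in untreated JM1 the internal promoter.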
